A study of Mus musculus with 4 samples.

Results

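The genes described here are the ligands and receptors of the vascular endothelial growth factor (VEGF) and angiopoietin families in the growing end of the mouse incisor. They were taken by gene symbol from the 4 deposited count matrices, and all 10 were found among 32285 gene identifiers. Of these, 6 encode ligands (Vegfa, Vegfc, Vegfd, Angpt1, Angpt2 and Angpt4) and 4 encode receptors (Kdr, Flt1, Flt4 and Tek). Single cells came from the proximal part of the lower incisor at postnatal day 15 (P15), 2 libraries from wild-type (WT) mice and 2 from Din-KO mice. Din is the gene 4930453N24Rik. Din-KO mice carried its conventional knockout allele (tm1b, from a Knockout Mouse Project gene-trap clone), in which germline Cre had removed exon 2 and a LacZ reporter stayed in place, so that every cell type carried the change. The incisors were minced and digested with liberase, dead cells were removed, and the number of mice behind each library was not given in the sources used here.

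VEGF-A is bound by the receptor tyrosine kinases VEGFR2 (encoded by Kdr), which carries most of its signal for endothelial growth and permeability, and VEGFR1 (Flt1), which binds it more tightly and signals weakly, in part as a decoy. VEGF-C and VEGF-D act through VEGFR3 (Flt4), known for lymphatic growth and for sprouting of blood vessels. Angiopoietin 1 activates the endothelial receptor TIE2 (Tek) and steadies the vessel wall, angiopoietin 2 acts on TIE2 as a context-dependent antagonist or partial agonist, and angiopoietin 4 is the less studied TIE2 ligand of the family. The rodent incisor grows throughout life, and its pulp holds a dense capillary bed beneath the odontoblasts, the cells that secrete dentin.

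The matrices held 20502 barcodes, of which 11310 passed the study's limits: 1000 or more genes, and no more than 10% of UMIs (unique molecular identifiers, the counted transcripts) from mitochondrial and 3% from hemoglobin genes. Libraries held 32198098 to 54348039 UMIs in all, and between 0 and 4 kept barcodes were shared by any pair of libraries. The cells fell into 29 clusters. By marker genes these gave 13 classes with a name, each called "like" the cell type whose markers led it, plus 140 cells left unnamed. The classes that matter most here were dental pulp-like (4674 cells), dental follicle-like (1366), odontoblast-like (347), endothelium-like (748) and perivascular-like cells (75), and 783 mesenchyme-like cells were left undivided. The 2 replicates differed in makeup: pulp-like cells were 52.6% and 48.7% of the cells of WT and Din-KO replicate 1 and 14.6% and 13.1% of those of replicate 2, while follicle-like cells were 8.12% and 7.06% against 27.2% and 23.7%. Sex and genotype moved together, since Y-linked UMIs were seen in 0.113% and 0.117% of the mesenchyme-like cells of the WT libraries and in 45.5% and 47.1% of those of the Din-KO libraries. Din itself, read by tags at the 3' end of transcripts, gave 36.2 and 28.4 CPM (a gene's UMIs in each 1000000 UMIs of the same cells) in WT and 22.8 and 28.2 CPM in Din-KO mesenchyme-like cells. Where these tags lay relative to the deleted exon was not tested, so the levels did not check the labels.

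Levels below are CPM of the UMIs summed over the cells of a class in a library, each given in the order WT replicate 1, WT replicate 2, Din-KO replicate 1, Din-KO replicate 2, with the mean ± SD of the 4 libraries (n = 4). Tags were counted at 3' ends, so a level does not tell transcript forms of a gene apart, such as the soluble and the membrane-bound form of VEGFR1, and levels were compared between cells for 1 gene at a time. Differences between classes are log2 fold changes with their standard error (SE) from edgeR's quasi-likelihood test of the sums, with the library as a covariate, and a gene was called at an adjusted p under 0.05. The members and their 10 partner genes were kept out of the genes used for clustering.

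On the mouse assembly GRCm38, Kdr lies at chr5:75932827-75978458 and Flt1 at chr5:147561604-147726011, both on the minus strand. Flt4 (chr11:49609263-49652739) and Tek (chr4:94739289-94874976) lie on the plus strand. Of the ligand genes, Vegfa spans chr17:46016993-46032369, Vegfc chr8:54077606-54187096, Vegfd chrX:164373378-164402650 and Angpt4 chr2:151911210-151945337. Angpt1 (chr15:42424723-42676977) is overlapped on the other strand by Gm17473, and Angpt2 (chr8:18690263-18741562) by Mcph1. Whether counting used the strand was not given in the sources used here, so the counts of these 2 ligands are uncertain to that extent. No other member overlapped a gene of the annotation.

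Promoter windows are shown for Kdr, Flt1 and Tek, the receptor genes that endothelium-like cells shared least with other classes, and for Vegfa and Angpt4, ligand genes that were highest in mesenchyme, because these genes had opposite patterns over the classes. Each is the 250 bases before the RefSeq start on GRCm38.p6, written 5' to 3' on the gene's strand, from chr5:75978456-75978705 (Kdr), chr5:147726012-147726261 (Flt1), chr4:94739039-94739288 (Tek), chr17:46032378-46032627 (Vegfa) and chr2:151910957-151911206 (Angpt4). Capitals mark matches, on either strand, to the core motif of the ETS factors, which is spelled GGAAGT, to that of the zinc finger factors named for the letters of their site, which is spelled GATAA, and to the box bound by the general initiation factor, which is spelled TATAAA.
Kdr: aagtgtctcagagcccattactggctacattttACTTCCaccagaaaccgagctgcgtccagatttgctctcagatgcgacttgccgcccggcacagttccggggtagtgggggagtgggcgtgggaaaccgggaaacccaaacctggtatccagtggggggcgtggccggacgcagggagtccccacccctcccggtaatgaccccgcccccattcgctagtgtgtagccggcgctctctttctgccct
Flt1: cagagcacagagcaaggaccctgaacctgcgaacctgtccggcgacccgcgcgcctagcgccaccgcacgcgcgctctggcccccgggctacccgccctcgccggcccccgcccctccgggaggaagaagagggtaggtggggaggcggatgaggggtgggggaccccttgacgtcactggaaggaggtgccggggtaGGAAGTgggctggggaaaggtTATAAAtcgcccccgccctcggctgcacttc
Tek: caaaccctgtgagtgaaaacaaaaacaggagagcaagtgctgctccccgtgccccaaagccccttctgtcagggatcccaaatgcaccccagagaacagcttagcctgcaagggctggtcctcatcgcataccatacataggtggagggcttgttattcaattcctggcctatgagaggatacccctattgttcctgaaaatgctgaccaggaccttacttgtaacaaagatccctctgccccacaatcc
Vegfa: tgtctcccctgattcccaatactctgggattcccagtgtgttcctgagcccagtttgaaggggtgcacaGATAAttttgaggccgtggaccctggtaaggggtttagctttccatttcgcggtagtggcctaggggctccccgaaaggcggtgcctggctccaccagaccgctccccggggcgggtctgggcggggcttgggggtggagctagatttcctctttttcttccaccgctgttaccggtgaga
Angpt4: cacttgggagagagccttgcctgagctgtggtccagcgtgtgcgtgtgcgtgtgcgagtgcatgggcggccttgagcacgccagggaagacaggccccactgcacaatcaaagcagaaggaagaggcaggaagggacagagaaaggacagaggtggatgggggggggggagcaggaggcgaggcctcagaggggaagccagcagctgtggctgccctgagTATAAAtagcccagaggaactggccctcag

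GGAAGT, on either strand, was in the windows of Kdr and Flt1, and in 19.7% of the 32851 windows of this length. Shorter forms of the ETS site, such as GGAA, were not counted. A TATAAA box was in those of Flt1 and Angpt4 (12.4% of all windows), and GATAA was in that of Vegfa (22.6%). The SP1 box GGGCGG, not marked, was in all of the 5 windows except that of Tek (32.7%). The hypoxia core ACGTG (16.6%) was in none of the 5 windows shown, but it was in the window of a second RefSeq start of Vegfa (chr17:46025164-46025413). That window lies within the span of the Vegfa gene. Other spellings of the hypoxia core, such as GCGTG, were not counted. The Tek window held none of the 5 motifs as spelled here. Motifs did not divide the receptors from the ligands. The windows of the receptor gene Flt4 and the ligand gene Vegfc, not shown, held no GGAAGT, and that of the ligand gene Vegfd held 1. These matches describe letters in a window and not sites of binding.

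The receptors Kdr, Flt1 and Tek were read almost only in endothelium-like cells. Kdr stood at 791, 756, 984 and 1239 CPM there (943 ± 222), against 5.55, 5.51, 5.06 and 2.98 CPM in dental pulp-like cells (4.77 ± 1.22), a 197-fold ratio of the means. Flt1 stood at 875, 1335, 1104 and 1813 CPM (1281 ± 401) against 1.10, 0.787, 1.69 and 0 CPM. Tek, the angiopoietin receptor, stood at 220, 260, 186 and 256 CPM (231 ± 34.5) against 0.989, 1.97, 3.43 and 2.38 CPM. For all 3 genes the lowest endothelium-like library lay above the highest library of every other class. Endothelium-like cells held 93.6% ± 3.0 of all Kdr UMIs of a library, 96.0% ± 1.49 of Flt1 and 89.7% ± 1.70 of Tek (SD, n = 4), while they were 6.15% to 9.12% of the cells.

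Most endothelium-like cells carried both VEGF-A receptors. UMIs of Kdr and Flt1 together were found in 94.6%, 90.9%, 94.2% and 91.4% of the endothelium-like cells of the 4 libraries, and 6 of the 748 cells held no UMI of any of the 4 receptors. Kdr UMIs were found in 95.1% ± 2.0 of these cells and in 0.517% ± 0.42 of B cells, a class that should lack them but that was read less deeply (median UMIs per cell 2579 to 3536 against 8261 to 9711). After thinning of each cell to 2000 UMIs these shares stood at 74.5% and 0.128%. Thinned shares of Flt1 and Tek in endothelium-like cells were 82.0% and 37.2%.

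**Figure D1:**
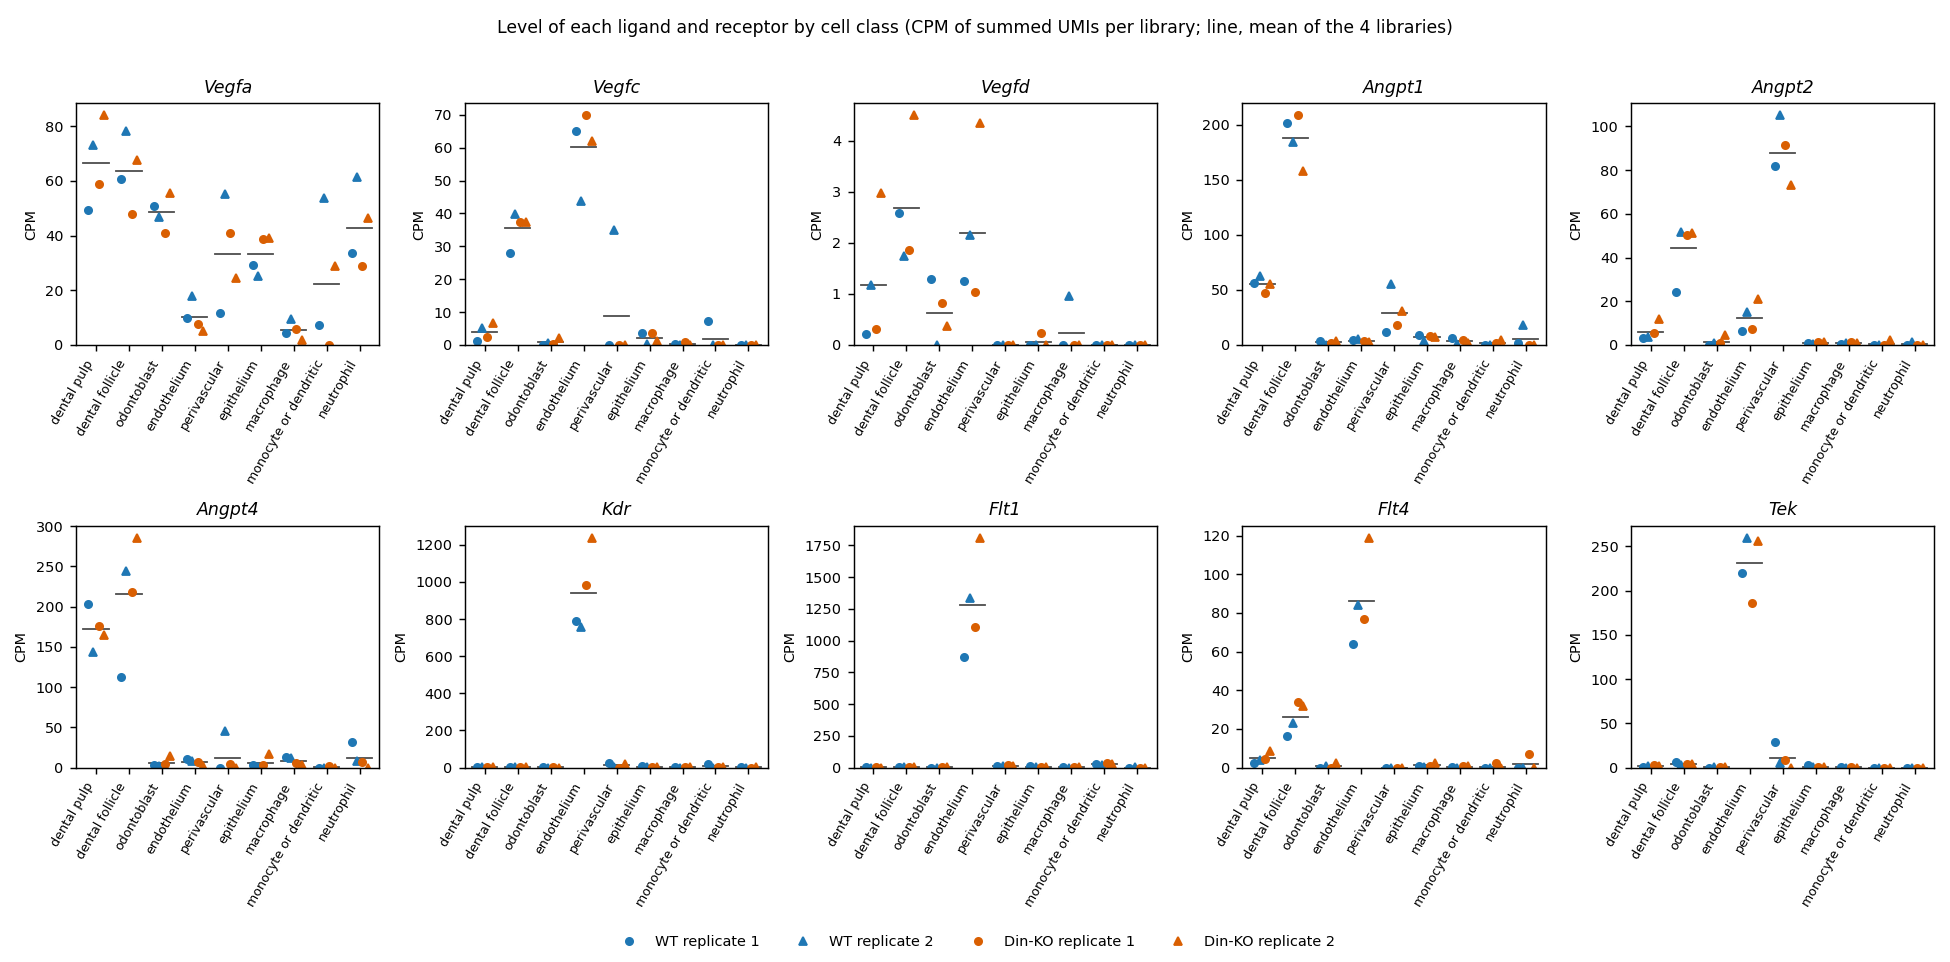
Level of the 10 ligands and receptors in 9 cell classes. The y axes give CPM of summed UMIs on linear scales that differ between panels, each point is 1 library (circles, replicate 1; triangles, replicate 2; blue, WT; orange, Din-KO) and lines are means of the 4 libraries. Kdr, Flt1 and Tek are highest in endothelium-like cells (means 943, 1281 and 231 CPM), Angpt4 and Angpt1 in pulp-like and follicle-like cells, and Angpt2 in perivascular-like cells (87.9 CPM).

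Between endothelium-like and dental pulp-like cells all 9 members that passed the low-count filter were called, where 52.8% of the 13059 genes tested were called. The receptors were higher in endothelium-like cells: Flt1 by 9.91 ± 0.51 on the log2 scale (SE, adjusted p = 2.34e-18), Kdr by 7.60 ± 0.44 (6.02e-16), Tek by 6.77 ± 0.41 (1.96e-15) and Flt4 by 4.31 ± 0.26 (1.07e-17). Of the ligands, Vegfc was higher there by 4.45 ± 0.39 (adjusted p = 3.83e-12), and Vegfa (-2.68 ± 0.27), Angpt1 (-3.76 ± 0.35) and Angpt4 (-4.51 ± 0.53) were lower. Angpt2 was higher by 1.06 ± 0.35 (adjusted p = 0.0111), a call that was lost without WT replicate 1 (0.0795), without WT replicate 2 (0.0607), with DESeq2 (0.109) and after thinning (0.353). Vegfd, at 238 UMIs in all cells, did not pass the filter.

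The endothelium-like cells fell into 3 clusters, which shared the receptors unequally. Cluster 7 (476 cells) was led by Aplnr, Gpihbp1 and Plvap, genes of capillaries. Cluster 19 (153 cells) was led by Gja4, Sox17 and Sema3g and held the highest level of all 7 arterial markers. Cluster 22 (119 cells) was led by Apoa1, Vwf and Selp and held the highest level of all 6 venous markers. Since the clusters were picked for comparison after their values were seen, their differences are described without a test.

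Tek was highest in cluster 22, at 379, 403, 334 and 434 CPM, against 227, 261, 181 and 203 CPM in cluster 7 and 118, 144, 111 and 172 CPM in cluster 19. The 3 clusters did not overlap in Tek, and their order was the same in 4 of 4 libraries. Kdr went the other way in cluster 22, with 456, 454, 417 and 603 CPM against 867, 834, 1073 and 1423 CPM in cluster 7, a 2.17-fold ratio of the means. Between clusters 7 and 19 neither Kdr nor Flt1 kept 1 order, each being higher in cluster 7 in 2 of 4 libraries. Flt4 was higher in cluster 7 (73, 100, 92 and 147 CPM) than in cluster 22 (59, 57, 56 and 58 CPM) in 4 of 4 libraries.

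**Figure D2:**
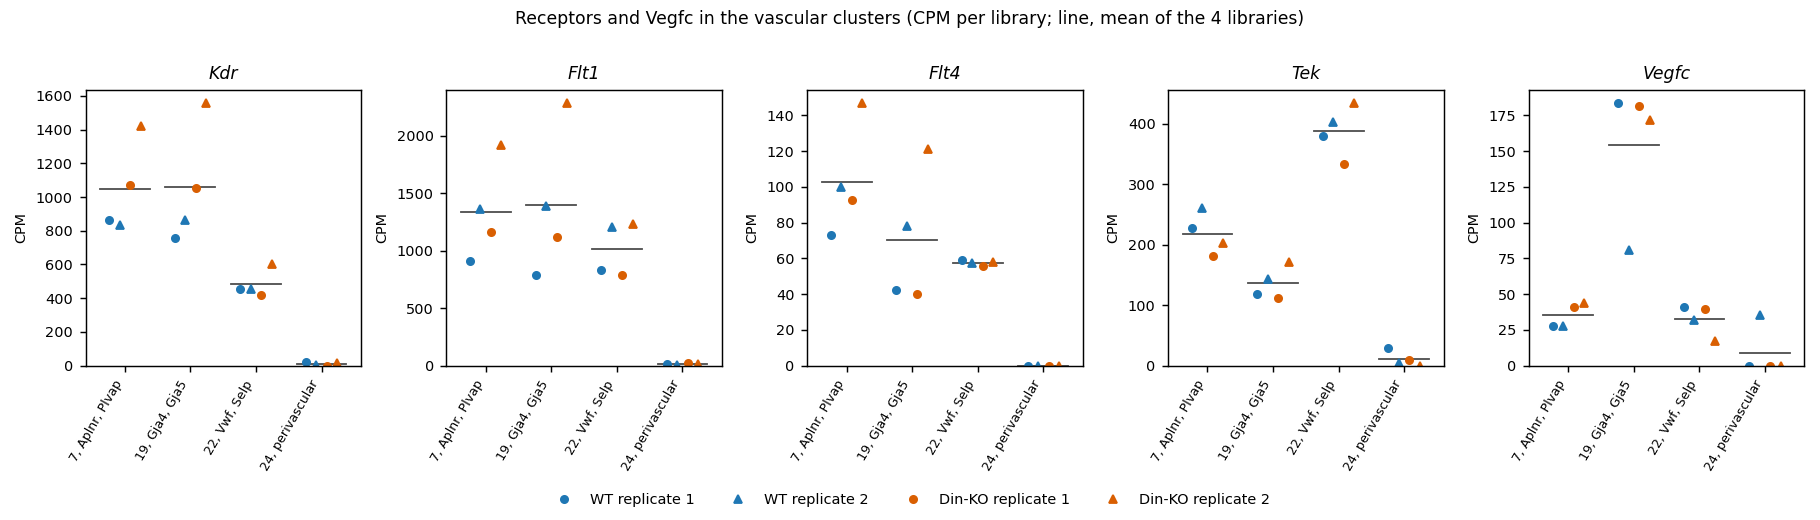
Kdr, Flt1, Flt4, Tek and Vegfc in the 3 endothelium-like clusters and the perivascular-like cluster 24. The y axes give CPM per library on linear scales that differ between panels, with points for libraries (circles, replicate 1; triangles, replicate 2; blue, WT; orange, Din-KO) and lines for means of the 4 libraries. Tek is highest in cluster 22 (mean 387 CPM), Vegfc in cluster 19 (154 CPM), and Kdr is lower in cluster 22 (483 CPM) than in clusters 7 and 19 (1049 and 1057 CPM).

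Lymphatic endothelium could not be set apart. UMIs of Prox1, the factor that defines lymphatic endothelial identity, were found in 12, 8, 14 and 14 endothelium-like cells, Ccl21a was in 0 of the 748 cells (which allows up to 0.401% of cells with a UMI, for counting error only, and sets no limit on cells that express the gene), and cluster 22 had 3 of 6 lymphatic markers above 5 CPM. Flt4, the VEGF-C receptor, stood at 64.1, 84.0, 76.7 and 119 CPM in endothelium-like cells (86.0 ± 23.5). It was read in all 3 endothelium-like clusters, and Flt4 UMIs were in 13.2% of cells after thinning and in 0% of B cells.

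Flt4 was the receptor gene with a second home. Dental follicle-like cells, the connective tissue around the tooth, held it at 16.5, 23.2, 34.0 and 31.8 CPM (26.4 ± 8.07), below every endothelium-like library and above every library of the other classes. Follicle-like cells held 24.4%, 59.3%, 29.9% and 47.8% of the Flt4 UMIs and endothelium-like cells 60.6%, 34.7%, 54.0% and 44.8%. Within the follicle-like cells, cluster 8, led by Aldh1a2, stood at 56.4, 54.7, 58.5 and 57.5 CPM and cluster 4 at 5 to 18 CPM. The leading genes of cluster 8 also included Sfrp2, a gene of the dental pulp marker list. The summed level of 9 endothelium markers was 61.3 to 84.2 CPM in follicle-like cells and 8218 to 10061 CPM in endothelium-like cells, and Kdr was at 2.59 to 4.64 CPM in the follicle-like cells. Perivascular-like cells held no Flt4 UMI, so that its level in endothelium-like cells was at least 21.6-fold higher, set against a floor of 3 counts over the pooled perivascular-like cells. This bound holds for the integrated clusters only. Without integration the perivascular-like class held 258 cells. Flt4 was then higher in it than in pulp-like cells (log2 difference 1.45, edgeR adjusted p = 0.00252).

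Between dental follicle-like and dental pulp-like cells 4 of 9 members were called, against 28.7% of all genes. Flt4 was higher in the follicle by 2.63 ± 0.26 on the log2 scale (adjusted p = 6.82e-11), Vegfc by 3.68 ± 0.38 (1.12e-09), Angpt2 by 3.01 ± 0.32 (5.57e-10) and Angpt1 by 1.85 ± 0.25 (8.59e-08). Vegfa differed by 0.02 ± 0.22 (95% interval -0.42 to 0.45) and Angpt4 by 0.37 ± 0.41 (-0.45 to 1.20), neither past the threshold.

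Vegfa, the main growth factor of blood vessels, was spread over the mesenchyme. Dental pulp-like cells held 49.4, 73.2, 58.8 and 84.1 CPM (66.4 ± 15.3), dental follicle-like cells 60.7, 78.0, 47.7 and 67.7 CPM (63.5 ± 12.7) and odontoblast-like cells 50.7, 46.6, 41.0 and 55.7 CPM (48.5 ± 6.20). The libraries of these 3 classes overlapped. Endothelium-like cells held 9.96, 17.9, 7.52 and 4.96 CPM (10.1 ± 5.62), below every library of the 3 mesenchymal classes. The summed level of 8 mesenchyme markers in the endothelium-like cells was 552, 2550, 610 and 389 CPM, highest and lowest in the same libraries as Vegfa, and the part of such RNA in its level was not tested.

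Neutrophils (33.7, 61.2, 28.9 and 46.6 CPM, from 70 UMIs in all) and epithelium-like cells (29.2, 25.3, 38.9 and 39.0 CPM) also held Vegfa. The pulp and the follicle changed places as the largest source with the makeup of the library: pulp-like cells held 57.2% and 55.7% of the Vegfa UMIs in the replicate 1 libraries and 13.7% and 13.6% in the replicate 2 libraries. Among the pulp-like clusters, Vegfa was higher in cluster 0 (61, 101, 86 and 130 CPM) and cluster 3 (83, 92, 75 and 81 CPM) than in cluster 1 (33, 46, 32 and 44 CPM) in 4 of 4 libraries. In the follicle, cluster 8 stood above cluster 4 by 2.46-fold, again in 4 of 4 libraries.

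Vegfc, the main ligand of VEGFR3, had 2 sources. Endothelium-like cells held 65.1, 43.8, 70.0 and 62.0 CPM (60.2 ± 11.4), and dental follicle-like cells held 28.1, 39.7, 37.5 and 37.3 CPM (35.6 ± 5.17), without overlap. Pulp-like cells were at 1.32 to 6.56 CPM and odontoblast-like cells held 9 UMIs in all. In the vessels Vegfc belonged mostly to cluster 19, with its arterial markers: 183, 81, 181 and 172 CPM against 28, 28, 41 and 44 CPM in cluster 7 and 41, 32, 40 and 17 CPM in cluster 22. Vegfc thus stood highest where Tek stood lowest among the 3 clusters. Cluster 19 also held the highest level of all 6 pericyte markers among the endothelium-like clusters (2714 CPM summed, against 15626 CPM in the perivascular-like cluster), and the perivascular-like cells themselves held 0, 7, 0 and 0 Vegfc UMIs. Without integration, where the perivascular-like class held 258 cells, Vegfc was higher in it than in pulp-like cells (log2 difference 3.44, edgeR adjusted p = 5.61e-08).

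Vegfd was scarce, with 29, 22, 70 and 96 UMIs in the mesenchyme-like cells of the 4 libraries. Of these, 4, 4, 43 and 59 came from cluster 5, an undivided mesenchyme-like cluster led by Tac1 and Fgf3, at 1.77, 1.79, 11.3 and 36.4 CPM. Both Din-KO libraries were above both WT libraries in this cluster, which was singled out after its values were seen. The share of all genes apart in this way was not computed for cluster 5, and it was 17.7% in all mesenchyme-like cells. Sex and genotype cannot be told apart in this difference. No perivascular-like, B or T or NK cell held a Vegfd UMI.

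Angpt4 and Angpt1, both ligands of TIE2, came from pulp and follicle in different proportions. Angpt4 stood at 204, 144, 176 and 165 CPM in pulp-like cells (172 ± 25.1) and at 113, 245, 219 and 286 CPM in follicle-like cells (216 ± 73.7), with overlapping libraries. Angpt1 stood at 56.4, 62.6, 47.1 and 55.4 CPM in the pulp (55.4 ± 6.37) and at 202, 184, 209 and 158 CPM in the follicle (188 ± 22.7), with no overlap. Thinned to 2000 UMIs a cell, Angpt4 was found in 22.6% of pulp-like and 26.3% of follicle-like cells, against 0.383% of B cells, and Angpt1 in 8.81% and 25.7%, against 1.10%.

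The highest Angpt4 level of the pulp was in cluster 6 (603 cells, led by Cnmd and Gpha2), at 517, 411, 548 and 983 CPM, where WT and Din-KO replicate 2 gave 12 and 5 cells. This was 3.10-fold the mean of cluster 0 and 7.71-fold that of cluster 3, in 4 of 4 libraries each. Angpt1 was arranged the other way, at 157, 210, 108 and 116 CPM in cluster 3 against 49, 27, 45 and 0 CPM in cluster 6. In the follicle both ligands peaked together in cluster 8, Angpt4 at 300, 602, 337 and 638 CPM and Angpt1 at 412, 336, 315 and 276 CPM. Cluster 16, also of the follicle, held Angpt4 at 421 and 213 CPM in the replicate 2 libraries and at 15 and 26 CPM in the replicate 1 libraries.

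**Figure D3:**
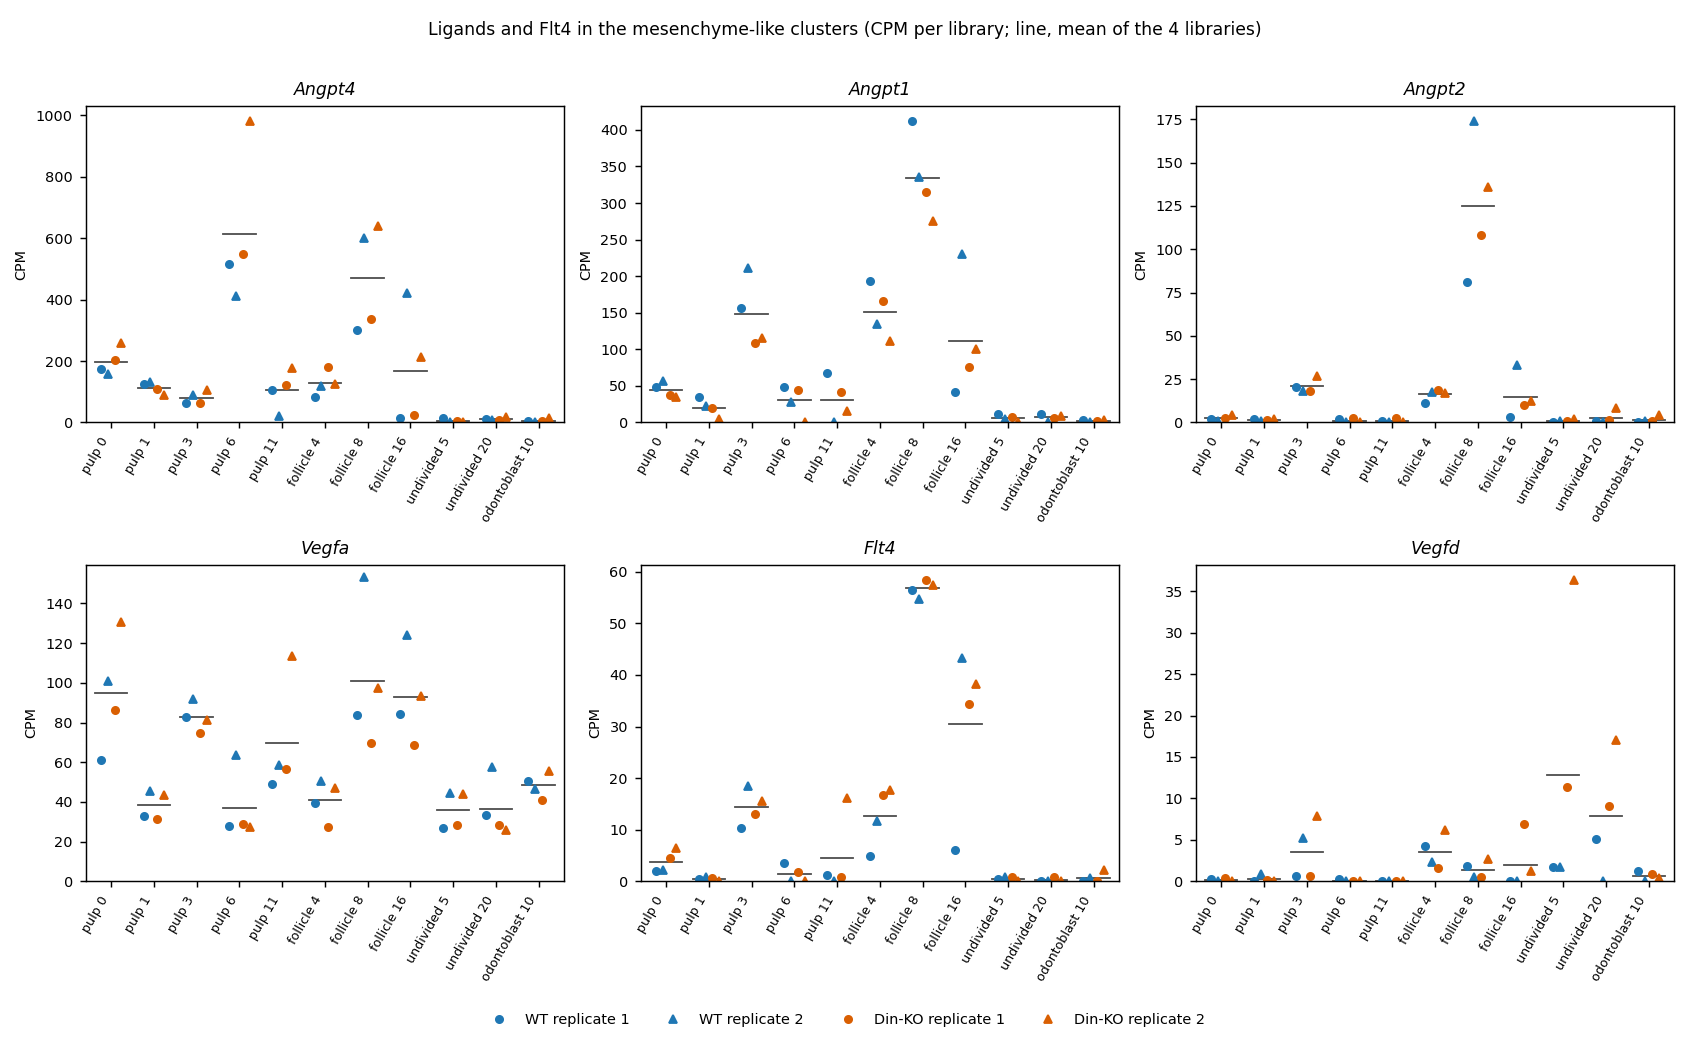
Angpt4, Angpt1, Angpt2, Vegfa, Flt4 and Vegfd in the 11 mesenchyme-like clusters. The y axes give CPM per library on linear scales that differ between panels, points are libraries (circles, replicate 1; triangles, replicate 2; blue, WT; orange, Din-KO) and lines are means of the 4 libraries. Angpt4 peaks in pulp cluster 6 (mean 614 CPM) and follicle cluster 8 (469 CPM), and Angpt2 and Flt4 in cluster 8 (125 and 56.8 CPM). The Vegfd mean is highest in cluster 5 (12.8 CPM), where the Din-KO libraries are higher than the WT libraries.

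Odontoblast-like cells kept Vegfa and lacked most of the angiopoietins. Angpt4 stood at 3.25, 2.09, 4.97 and 14.7 CPM and Angpt1 at 3.90, 0.348, 2.07 and 3.76 CPM, so that the pulp means were 27.5-fold and 22-fold higher, with no overlap of libraries. In the test 5 of 9 members were called, all lower than in pulp-like cells, against 41.3% of all genes called in either direction. These were Angpt4 (-4.53 ± 0.55, adjusted p = 2.51e-08), Angpt1 (-4.20 ± 0.38, 7.54e-12), Kdr (-2.24 ± 0.77, 0.0196), Flt4 (-2.12 ± 0.48, 0.000383) and Angpt2 (-1.55 ± 0.50, 0.0118). Vegfa differed by -0.13 ± 0.23 (95% interval -0.58 to 0.33, adjusted p = 0.689), although it was called lower with coarser clusters (-0.50, adjusted p = 0.0298). The calls of Kdr and Angpt2 were lost without WT replicate 1 (0.0625 and 0.0723), that of Kdr without Din-KO replicate 2 (0.0671) and that of Angpt2 without Din-KO replicate 1 (0.128). After thinning, Kdr (0.111), Angpt2 (0.0506) and Flt4 (0.547) were not called, and the Kdr difference shrank to -0.74 (0.285) with coarser clusters and to -0.57 (0.355) without integration. The odontoblast-like class was not the same cells in these clusterings. With coarser clusters it held 896 cells led by Tac1 and Smpd3 and 230 led by Bglap. Without integration it held 870 cells led by Tac1 and Fgf3 and 253 led by Bglap.

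Among the classes, Angpt2 was highest in perivascular-like cells, which cover vessel walls and here were led by Rgs5, Myh11 and Acta2. It stood at 81.7, 105, 91.3 and 73.2 CPM there (87.9 ± 13.7), from 14, 21, 20 and 12 UMIs in 26, 17, 24 and 8 cells. Follicle-like cells held 24.3, 51.9, 50.2 and 51.1 CPM (44.4 ± 13.4), endothelium-like cells 6.54, 15.1, 7.52 and 21.1 CPM and pulp-like cells 3.30, 3.54, 5.31 and 11.9 CPM. Each perivascular-like library lay above each library of the other classes. Because perivascular-like cells were few, most Angpt2 UMIs still came from the follicle (68.3% ± 16.6, SD, n = 4), and perivascular-like cells gave 4.38% ± 1.22. Within the follicle, cluster 8 again stood highest, at 81, 174, 108 and 136 CPM, 7.70-fold the mean of cluster 4. The mean of cluster 8, 125 CPM, was also above that of the perivascular-like cells.

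Between perivascular-like and dental pulp-like cells 3 of 9 members were called, against 17.6% of all genes, with Din-KO replicate 2 left out of the perivascular-like sums for its 8 cells. Angpt2 was higher by 4.12 ± 0.44 (adjusted p = 1.11e-09) and Flt1 by 3.34 ± 1.13 (0.0354), and Angpt4 was lower by 3.30 ± 0.86 (0.00494). The Flt1 level there, 11.7, 10.0, 22.8 and 12.2 CPM from 11 UMIs, came with 572, 331, 598 and 305 CPM of the summed endothelium markers. Esam alone gave 286, 170, 447 and 207 CPM of that sum, and Cdh5 stood at 29.2, 0, 0 and 0 CPM. Of the 9 markers, 0, 4, 4 and 6 had no UMI in the 4 libraries. The part of endothelial RNA in the Flt1 level was not tested. The Flt1 call was lost when WT replicate 1 (0.0579), WT replicate 2 (0.106) or Din-KO replicate 1 (0.351) was left out. It was also lost without the 5% of cells with the highest doublet scores (edgeR adjusted p = 0.0707) and with coarser clusters (0.0715). The Angpt4 call was lost when Din-KO replicate 1 was left out (0.176) and when the libraries were not integrated (-0.05, adjusted p = 0.972).

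Endothelium-like and perivascular-like cells were set apart by 8 of 9 members, against 19.3% of all genes. Higher in the endothelium were Kdr (7.02 ± 0.69, adjusted p = 2.01e-09), Flt1 (6.57 ± 0.62, 3.37e-10), Tek (4.24 ± 0.63, 3.44e-06), Vegfc (2.47 ± 0.67, 0.00687) and Flt4, whose bound is given above. Higher in the perivascular-like cells were Angpt2 (-3.06 ± 0.44, 6.65e-07), Angpt1 (-2.72 ± 0.68, 0.00247) and Vegfa (-1.77 ± 0.50, 0.00724), and Angpt4 was not called. The calls of Vegfc, Angpt1 and Vegfa did not hold in every fit that left out a library: Vegfc was lost without WT replicate 1 (0.0908) and Din-KO replicate 1 (0.205), Angpt1 without WT replicate 2 (0.106), and Vegfa without WT replicate 2 (0.0886) and Din-KO replicate 1 (0.0696). After thinning, Angpt1 (0.337) and Vegfa (0.778) were not called.

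Epithelium-like cells held Vegfa at the levels given above and the other members at means of at most 7.20 CPM, while in macrophage-like cells the highest mean of a member was that of Angpt4 (8.62 CPM) and Vegfa (5.50 CPM) was the lowest of the 13 classes. Against pulp-like cells 6 of 9 members were called in each, where 46.4% and 60.7% of all genes were called. In macrophage-like cells all 6 were lower: Angpt4 by 3.97, Angpt1 by 3.31, Vegfa by 3.15, Flt4 by 2.33, Angpt2 by 1.95 and Vegfc by 1.95 on the log2 scale, the last lost without Din-KO replicate 2 (adjusted p = 0.0548). In epithelium-like cells 5 were lower, among them Angpt4 (-4.50) and Vegfa (-0.57 ± 0.22, adjusted p = 0.0346), the latter lost when WT replicate 1 (0.0769) or Din-KO replicate 2 (0.0888) was left out. The Vegfa call was also lost after thinning (-0.20, adjusted p = 0.629), without the library as a covariate (0.173) and without integration (0.0643). Flt1 was higher by 2.16 ± 0.56 (0.00147, and 0.0540 without WT replicate 1), from 10.5, 5.12, 2.58 and 1.56 CPM, and the summed endothelium markers there were 95.9, 34.4, 31.6 and 25.4 CPM, in the same order.

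Flt1, but little Kdr, was read in monocyte- or dendritic-like cells, at 28.8, 21.5, 34.9 and 24.8 CPM from 36 UMIs, and Flt1 UMIs were in 14.2% of these cells against 0.620% of B cells. Glia-like cells held Kdr at 8.77, 188, 66.7 and 36.3 CPM and Flt1 at 0, 200, 106 and 46.9 CPM. Their summed endothelium markers were 211, 1458, 1078 and 407 CPM, so that these levels were high and low in the same libraries, and endothelial RNA was not tested as their source.

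The 10 partner genes (other ligands, co-receptors and processing factors of both families) were read alongside. Between endothelium-like and pulp-like cells 6 were higher and 4 lower. Among the highest were Ptprb, the phosphatase VE-PTP that acts on TIE2 (722, 900, 717 and 929 CPM in endothelium-like cells, log2 difference 9.24 ± 0.57, adjusted p = 2.81e-14), Tie1, the orphan partner of TIE2 (249, 345, 309 and 317 CPM, 8.77 ± 0.36, 3.98e-21), and Nrp1, a VEGF co-receptor (5.03 ± 0.32, 1.69e-16). Ccbe1, needed to activate VEGF-C, was lower (-4.96 ± 0.70, 1.10e-07). Adamts3, the protease that works with Ccbe1 on VEGF-C, stood at 35.7, 27.6, 28.4 and 32.2 CPM in pulp-like cells against 1.87, 5.03, 2.33 and 0.620 CPM in endothelium-like cells, and Ccbe1 at 5.16, 19.3, 9.55 and 17.9 CPM in pulp-like cells. Between these classes, Vegfc was thus higher in endothelium-like cells, and Adamts3 and Ccbe1 were higher in pulp-like cells. Adamts3 and Ccbe1 were not ranked over all classes.

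In the follicle 4 partners were higher than in the pulp and 3 lower, led by Svep1 (3.81 ± 0.40, adjusted p = 5.59e-09), Ccbe1 (-3.77 ± 0.50, 1.11e-07), Pgf (3.51 ± 0.41, 9.44e-09) and Nrp2 (3.04 ± 0.30, 1.73e-10). Nrp2, a co-receptor for VEGF-C, stood at 250, 263, 214 and 222 CPM in follicle-like cells and 225, 376, 218 and 306 CPM in endothelium-like cells, with overlapping libraries. In perivascular-like cells 3 partners were higher than in the pulp and 3 lower. Pgf, placental growth factor, a ligand of VEGFR1, led those that were higher, at 158, 150, 201 and 201 CPM (5.66 ± 0.49, adjusted p = 1.40e-11), with Tie1 (4.75 ± 0.80) and Nrp1 (4.30 ± 0.35). The endothelium markers given above for these cells, with their sum mostly from Esam, apply to Tie1 too. Ccbe1 had no UMI in perivascular-like cells, and its pulp level was at least 3.26-fold higher on the same floor. In odontoblast-like cells 2 partners were higher and 6 lower, among them Plxnd1 (-2.78 ± 0.22, 4.39e-14).

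Of 12 genes fixed as markers of VEGF response and sprouting, 10 were higher in endothelium-like than in pulp-like cells, with Aplnr (9.13 ± 0.46), Esm1 (9.0 ± 0.69) and Pdgfb (8.58 ± 0.46) in front, and 1, Hey1, was lower (-2.07 ± 0.22, adjusted p = 1.07e-10). Of all 13059 genes tested, 3894 were called higher and 3005 lower. Median log2 differences were 5.89 over this list, 1.84 over the partners and 0.07 over all genes tested. Genes of this list were not kept out of the clustering, and Aplnr led endothelium-like cluster 7. The count therefore does not measure a response to VEGF.

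Genes whose levels followed those of each member most closely over the 12 classes of the class fit, which left out the 29 erythroid-like cells, were picked by Pearson's r of the mean log2(CPM + 1), with classes of the same 4 libraries as points and no test. Over the receptors these were Pcdh17 and Plscr2 for Kdr (r = 0.982 and 0.976), Tmem255b and Gm3364 for Tek (0.982 and 0.975), Masp1 and Tmem44 for Flt4 (0.973 and 0.946) and Vwf and Klhl4 for Flt1 (0.951 and 0.950). Over the ligands they were Prkg1 and Pgf for Angpt2 (0.969 and 0.964), Dio3 and Thbs4 for Angpt4 (0.966 and 0.958), Lepr and Tmem44 for Vegfc (0.961 and 0.951) and St6galnac5 and Wnt9a for Angpt1 (0.959 and 0.951). For Vegfa, the most widely spread ligand, the closest were Naaladl2 (0.862) and Elovl4 (0.860).

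The second question was whether the Din-KO libraries held more or less of any member than the WT libraries in the same class. Sums of 2 libraries were set against 2 in each class, and no member was called in any of the 5 classes tested, by edgeR or by DESeq2. At an unadjusted p under 0.05, edgeR gave 1 member in each class but the odontoblast-like one, where it gave 0. The share of genes called was 0.0985% of 11164 in endothelium-like, 0.0146% of 13656 in pulp-like, 0.0155% of 12909 in follicle-like, 0% of 10475 in odontoblast-like and 0% of 15301 in all mesenchyme-like cells. In the same order of classes, edgeR gave 345, 234, 284, 85 and 141 of these genes at an unadjusted p under 0.05. In the last 2 classes DESeq2 called 2 and 18. On simulated counts of the same size, 4-fold changes were recovered for 86% of genes in endothelium-like, 80% in pulp-like and 28.5% in mesenchyme-like cells. Each gene was drawn with the same spread and no replicate effect, and the other classes were not simulated. The rates cover all genes and may not hold for the members.

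In endothelium-like cells the member nearest the threshold was Kdr. Its Din-KO libraries (984 and 1239 CPM) lay above its WT libraries (791 and 756 CPM), a log2 difference of 0.54 ± 0.23 (95% interval 0.00 to 1.08, adjusted p = 1.00). Vegfa, Angpt1 and Angpt4 lay lower in both Din-KO libraries than in both WT libraries, so that 4 of 9 members did not overlap, against 26.3% of all genes. Vegfa differed by -1.02 ± 0.46 (-2.11 to 0.07), from 32 and 25 UMIs in WT and 29 and 8 in Din-KO. Angpt1 and Angpt4 had 39 and 75 UMIs in all endothelium-like cells, and their pulp means were 14.2-fold and 25.2-fold higher. In Din-KO replicate 2 endothelium-like cells held 0.340% of 1177 Angpt1 and 0.133% of 2262 Angpt4 UMIs. The part of RNA of mesenchyme-like cells in these ligands was not tested. Flt1 (0.42 ± 0.31, interval -0.30 to 1.15), Flt4 (0.42 ± 0.28, -0.22 to 1.07), Tek (-0.10 ± 0.24, -0.66 to 0.47) and Vegfc (0.29 ± 0.28, -0.37 to 0.95) overlapped. With the replicate number as a block, Kdr was called (0.54, adjusted p = 0.0288) and no other member was. In cells with 3 or more Xist UMIs and no Y-linked UMI, Kdr differed by 0.75 (adjusted p = 0.843). Such cells were 93.3% and 91.9% of the endothelium-like cells in WT and 44.0% and 54.3% in Din-KO.

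**Figure D4:**
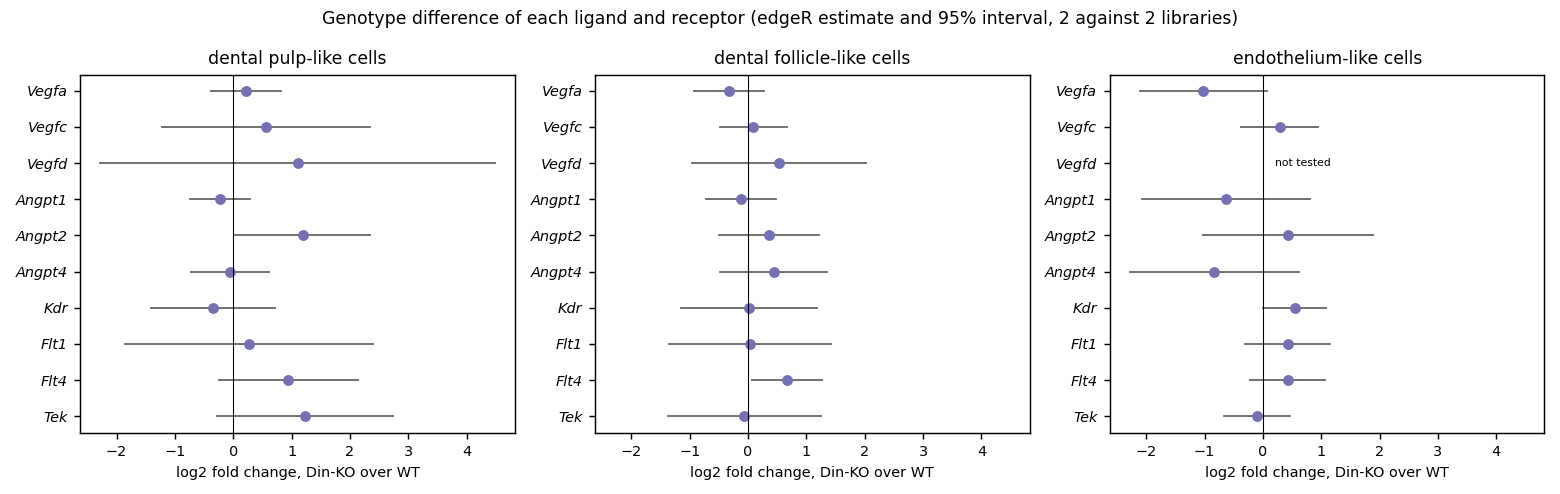
Difference of each member between Din-KO and WT in pulp-like, follicle-like and endothelium-like cells. The x axes give the log2 fold change, points are edgeR estimates and bars 95% intervals from 2 against 2 libraries. Most intervals span 0; those of Kdr in endothelium-like (0.00 to 1.08), Angpt2 in pulp-like (0.03 to 2.35) and Flt4 in follicle-like cells (0.07 to 1.26) start at or above it, and none was called.

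In pulp-like cells 5 of 10 members did not overlap between genotypes, against 23% of all genes: Angpt2, Flt4 and Tek were higher and Kdr and Angpt1 lower in both Din-KO libraries. Of these, Angpt2 differed most from 0 relative to its error (1.19 ± 0.51, interval 0.03 to 2.35, adjusted p = 1.00), from 60, 9, 85 and 20 UMIs. Tek and Kdr rested on few counts in the replicate 2 libraries. Pulp-like cells held 1.23% of 406 Tek UMIs in WT replicate 2 and 0.871% of 459 in Din-KO replicate 2. For Kdr they held 1.19% of 1178 and 0.241% of 2075 UMIs. Angpt4, the member with most UMIs in the pulp (7167), differed by -0.05 ± 0.29 (-0.72 to 0.61), and Vegfa by 0.22 ± 0.26 (-0.38 to 0.81). Without WT replicate 1 the Angpt4 difference was 0.33 and without WT replicate 2 it was -0.34. The summed level of 10 genes of dissociation stress in pulp-like cells was 585, 2058, 1164 and 3942 CPM, so that it was higher in Din-KO than in WT within each replicate number, and higher in replicate 2 than in replicate 1 of each genotype. The median genotype difference of these stress genes was 0.87, against -0.01 over all genes, and none was called. Their part in the members' values was not tested.

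In follicle-like cells Flt4 did not overlap, 1 of 10 members against 22.9% of all genes. Its WT libraries stood at 16.5 and 23.2 CPM and its Din-KO libraries at 34.0 and 31.8 CPM (0.67 ± 0.24, interval 0.07 to 1.26, adjusted p = 1.00). The summed stress genes moved the same way, at 583 and 1393 CPM in WT and 1129 and 2200 CPM in Din-KO (median difference 0.71, against -0.02 over all genes), and their part was not tested. Angpt4 differed there by 0.44 ± 0.38 (-0.47 to 1.36) and Angpt1 by -0.13 ± 0.25 (-0.73 to 0.47). Only Vegfa and Angpt4 passed the filter in odontoblast-like cells. Angpt4 did not overlap, 1 of 2 members against 21.2% of all genes, at 5 and 6 UMIs in WT and 12 and 39 in Din-KO (1.84 ± 0.77, interval -0.11 to 3.79), and its difference was 0.72 without Din-KO replicate 2. Vegfa differed by -0.10 ± 0.32 (-0.91 to 0.71).

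Over all mesenchyme-like cells 3 of 10 members did not overlap, against 17.7% of all genes, each higher in Din-KO. Vegfd was the largest of them, at 1.03 and 1.33 CPM in WT and 2.48 and 7.67 CPM in Din-KO (2.05 ± 0.68, interval 0.23 to 3.86, adjusted p = 1.00). Without Din-KO replicate 2 its difference was 1.05. The median difference of the stress genes was 0.69 in these cells and 0.61 in odontoblast-like cells, and their part was not tested. The others were Tek (0.84 ± 0.40) and Flt1 (0.75 ± 0.50). The summed endothelium markers in mesenchyme-like cells were 44.2 and 55.7 CPM in WT and 58.8 and 76.3 CPM in Din-KO. They too did not overlap, and the part of endothelial RNA in the Tek and Flt1 values was not tested. Genotype was not tested in perivascular-like cells, since Din-KO replicate 2 held 8 of them. Sex and genotype cannot be told apart in these values beyond the cells selected by Xist as above, in which no member was called either.

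Whether a member's genotype difference was itself different between endothelium-like and mesenchyme-like cells was tested as an interaction. No member was called by edgeR or DESeq2 (2 at an unadjusted p under 0.05, Tek and Vegfa) and 0% of 14664 genes were, with 340 genes at an unadjusted p under 0.05 by edgeR and 3 called by DESeq2. Tek had the largest ratio to its error, -0.94 ± 0.22 (adjusted p = 1.00), from -0.10 in endothelium-like and 0.84 in mesenchyme-like cells. The summed endothelium markers given above for mesenchyme-like cells apply to the Tek value of these cells here too. None of the partner, VEGF response, hypoxia or dissociation stress genes was called between genotypes in any class. Esm1, a gene of sprouting endothelium, had the smallest p of the VEGF response genes in endothelium-like cells (1.11 ± 0.31, adjusted p = 0.780).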

How the data were processed

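Droplet 3' single-cell RNA libraries (10x Genomics) of 2 WT and 2 Din-KO samples were made and aligned by the authors with Cell Ranger 6.0.2 to mm10 (GRCm38), and the deposited matrices hold raw UMI counts per gene and barcode. Barcodes needed 1000 genes or more, with mitochondrial UMIs up to 10% and hemoglobin UMIs up to 3%. Cells were clustered with Seurat 5.3.0 (2000 variable genes without members and partners, cell cycle regressed, libraries integrated, 30 principal components, resolution 1), and clusters were named by marker lists. The doublet caller marked 0.221% of cells, which means it did not work, so no cell was removed for it in the reported fits. UMIs were summed per library and class, leaving out sums of fewer than 10 cells, and tested with edgeR 4.0.16 (TMM, quasi-likelihood, low-count filter, Benjamini-Hochberg over all genes, R 4.3.3). Class tests used 47 sums with library as a covariate, and genotype tests set 2 libraries against 2. DESeq2 1.42.0, other clusterings, filters and thinning to 2000 UMIs were alternatives. The fits were tested on simulated data.

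The text names all 10 members, and from the partner, VEGF response, hypoxia and stress lists 2 to 4 genes with the largest called differences, or the smallest p where none was called, plus the 2 genes most like each member. Adamts3, Hey1, Adm and, where not among these, Nrp2, Plxnd1 and Ccbe1 were named after their values were seen. Members, lists and comparisons were chosen with earlier results of these data known. Libraries were not stated to come from separate animals, so p-values measure only the spread between these samples, which may be technical, and floors and limits set from counts of 0 cover counting error only, while the 95% intervals of log2 differences are from edgeR and include the spread between libraries. An exact test of 2 against 2 cannot go below p = 0.333. Promoter sequences are from RefSeq (GRCm38.p6), where 8 of 10 members had one, and positions are from GENCODE for GRCm38.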

Additional observations from a re-analysis of the deposited data

How the results depend on the processing

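Of 173 recomputed counts of members called, 166 equaled the reported count or stayed within 1.5 times of it. These include genotype and interaction counts that were 0 in both. Members called between perivascular-like and pulp-like cells went from 3 to 6 with no filter on low counts or without integration, and to 1 to 3 when a replicate was left out. Between follicle-like and pulp-like cells they went from 4 to 7 with no filter. Between odontoblast-like and pulp-like cells they went from 5 to 2 after thinning and to 3 to 5 when a replicate was left out. Flt4 in perivascular-like against pulp-like cells reversed to 1.45 without integration, where that class held 258 cells. The causes were not tested. Of 1469 log2 differences, 1406 kept their side of the threshold, 38 lost and 24 gained a call, and 1 reversed. Direction was not checked where neither fit called the gene.

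With the replicate number as a block, 1 member (Kdr) was called in endothelium-like cells against 0 without it, and Flt1 had an adjusted p of 0.0586. The labels do not say that a number marks a shared day or animal, and same-numbered samples correlated in their deviations with r of 0.50 to 0.78. Over all genes the block called 156 (mesenchyme-like), 285 (pulp-like), 82 (follicle-like), 11 (odontoblast-like) and 199 (endothelium-like), against 0, 2, 2, 0 and 11. Follicle-like calls went from 2 to 165 with no filter, endothelium-like ones to 234 without WT replicate 1 and to 0 in Xist cells, and the interaction from 0 to at most 8. Thinning lowered class calls over all genes from 6899 to 3619 (endothelium-like against pulp-like), 2296 to 1109 (perivascular-like), 5398 to 2000 (odontoblast-like), 3742 to 1756 (follicle-like), 6063 to 2554 (epithelium-like), 7922 to 4476 (macrophage-like) and 2525 to 1057 (endothelium-like against perivascular-like), the last reaching 4744 at most. The 75 perivascular-like cells limit every value of that class.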

Other observations

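Of 15 tested genes known to respond to low oxygen, 10 were higher, 1 was lower and 4 were not called in odontoblast-like against pulp-like cells, classes between which Vegfa was not called. Of all 13059 genes, 2534 were called higher there. The list had a median log2 difference of 0.88 against -0.06 over all genes. Ndrg1, a hypoxia-inducible gene, differed by 3.24 ± 0.37 (SE, edgeR, adjusted p = 6.41e-09), Pfkfb3, which drives glycolysis, by 2.89 ± 0.27, and the collagen prolyl hydroxylases P4ha1 and P4ha2 by 2.52 ± 0.17 and 2.03 ± 0.26. Adm, the gene of adrenomedullin, was the one that was lower (-1.47). The summed level of the list was 1692, 1566, 1729 and 1731 CPM in odontoblast-like and 717, 715, 695 and 652 CPM in pulp-like cells, without overlap.

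The number of Kdr UMIs per Flt1 UMI in endothelium-like cells was 0.905 and 0.566 in WT and 0.891 and 0.684 in Din-KO. Both replicate 1 libraries were above both replicate 2 libraries, and the genotypes overlapped. In cluster 22 the ratio was 0.546 and 0.376 in WT and 0.532 and 0.489 in Din-KO.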
